A study of Mus musculus with 10 samples.

Results

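Metalloproteinases of the matrix metalloproteinase (MMP), ADAM and ADAMTS families and their inhibitors, the TIMPs, were examined in RNA from sorted meningeal lymphatic endothelial cells (LECs) of stressed and non-stressed female mice. Genes were taken by symbol from the deposited count table, as all symbols that begin with Mmp, Timp or Adam and a number, or with Adamts, without pseudogenes. This gave 85 of the 55401 rows, namely 23 MMP, 34 ADAM, 19 ADAMTS, 5 ADAMTS-like and 4 TIMP genes. The naive group held 5 replicates from C57BL/6 females (C57BL/6J in the paper's methods) aged 3 months without stress. The SCVS group held 5 replicates from females of the same strain and age after 6 days of sub-chronic variable stress. In this stress, foot shock, tail suspension and restraint alternated. Each replicate was a pool of cells from 3 to 4 meninges, digested in collagenase VIII with actinomycin D and sorted as CD45-CD31+podoplanin+ cells. The total count per replicate was 10421467 to 13975282 in the naive group and 9984743 to 14094155 in the SCVS group. A floor of 3 counts, below which a gene was treated as not detected, corresponded to 0.213 to 0.3005 CPM, counts per 1000000 counted in a replicate, and covers counting error only.

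MMPs, ADAMs and ADAMTSs are zinc-dependent endopeptidases that are made as inactive precursors. MMPs cut collagens and other matrix proteins, ADAMs are membrane proteins that release the outer parts of other membrane proteins, and ADAMTSs are secreted and trim procollagens, proteoglycans and microfibrils. TIMPs block the active site, and in endothelium the balance of proteases and inhibitors is known to act on sprouting, on vessel stability and on growth factor release. Some ADAMs and all ADAMTS-like proteins have no catalytic zinc site and act in adhesion or as partners of matrix proteins.

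The zinc site is coded by a short stretch in which 3 histidines hold the metal and a glutamate takes part in catalysis. It is shown here because it divides the ADAMs into 21 genes with the complete motif and 13 without it, and these subfamilies differed in their counts. Capitals mark codons for the motif's histidines and glutamate, from the start of the motif to its last histidine.
Adam10: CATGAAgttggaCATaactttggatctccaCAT
Adam9: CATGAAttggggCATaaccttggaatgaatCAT
Adam15: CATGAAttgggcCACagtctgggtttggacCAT
Adam17: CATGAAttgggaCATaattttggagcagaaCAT
Mmp14: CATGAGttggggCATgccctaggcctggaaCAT
Mmp23: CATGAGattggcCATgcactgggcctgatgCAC
Adamts2: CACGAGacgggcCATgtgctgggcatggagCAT
Adam4: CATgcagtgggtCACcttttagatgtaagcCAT
Adam22: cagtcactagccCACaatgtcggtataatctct
Adam23: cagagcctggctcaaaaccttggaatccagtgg
All 4 zinc-site residues were coded in the 7 sequences from Adam10 to Adamts2. In the stretch aligned to that of Adam9, 3 of the 4 residues were coded in Adam4, 1 in Adam22 and 0 in Adam23. Positions are those of mm9 (GENCODE M1), the genome that the methods name, although the submitters' processing notes name GRCm38. The stretch of Mmp23 is in coding exon 5 of 8 on the minus strand (chr4:155025637-155025669) and that of Mmp14 in coding exon 5 of 10 on the plus strand (chr14:55056464-55056496). The stretches of Adamts2 (chr11:50588905-50589636) and Adam10 (chr9:70602103-70609392), both on the plus strand, are each split over 2 coding exons. Those of Adam9 (chr8:26100798-26100830), Adam15 (chr3:89148702-89148734), Adam17 (chr12:21342593-21342625), Adam4 (chr12:82521750-82521782) and Adam22 (chr5:8143064-8143096) lie on the minus strand, and that of Adam23 (chr1:63594337-63594369) on the plus strand. All 19 ADAMTS and 23 MMP genes held the complete motif.

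The replicates differed widely in the levels of cell type markers. Over 7 LEC markers (Prox1, Lyve1, Flt4, Pdpn, Mmrn1, Ccl21a and Reln), of which Mmrn1 was the most abundant, the summed level was 1038 ± 1075 CPM in the naive group and 1813 ± 1191 CPM in the SCVS group (SD, n = 5). Naive replicate 1 had a sum of only 60.8 CPM, with 0 counts of Prox1 and Pdpn and 2 of Lyve1. Naive replicate 5 had 185 CPM of these markers, only 428 CPM of 5 pan-endothelial genes against 3451 to 6486 CPM in the other replicates, and the highest sum of 5 neural genes, 3159 CPM. In that replicate 2 of 7 blood endothelial genes, Sox17 and Vwf, had 0 counts and Cldn5 had 2. Blood endothelial genes, of which Plvap was the most abundant, exceeded the LEC markers in every replicate, with sums of 6390 ± 3731 CPM in the naive group and 6241 ± 1691 CPM in the SCVS group. No pair of replicates correlated above 0.632 in log2 CPM over the tested genes. In bulk RNA, fewer cells of a type and less RNA per cell cannot be told apart.

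Detection was sparse. Of the 85 genes, 16 had no count in any replicate, 27 never exceeded the floor, and 58 exceeded it somewhere. Among these 58 genes, 6 exceeded the floor in 1 replicate, 18 in 2 or 3, 23 in 4 to 7, 6 in 8 or 9 and 5 in all 10. The 5 genes over the floor in every replicate were Timp2, Timp3, Adam10, Adam15 and Mmp15. They were 13.2% of the 38 genes that passed the filter on low counts (more than 5 counts in at least 3 replicates), whereas 38.1% of all 14815 genes past that filter were over the floor in every replicate. Between 19 and 39 of the 85 genes were over the floor in a naive replicate (27.0 ± 7.84, SD, n = 5), and between 25 and 32 in an SCVS replicate (27.8 ± 3.03). The highest and the lowest number were thus both in the naive group, in replicates 2 and 5.

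**Figure D1:**
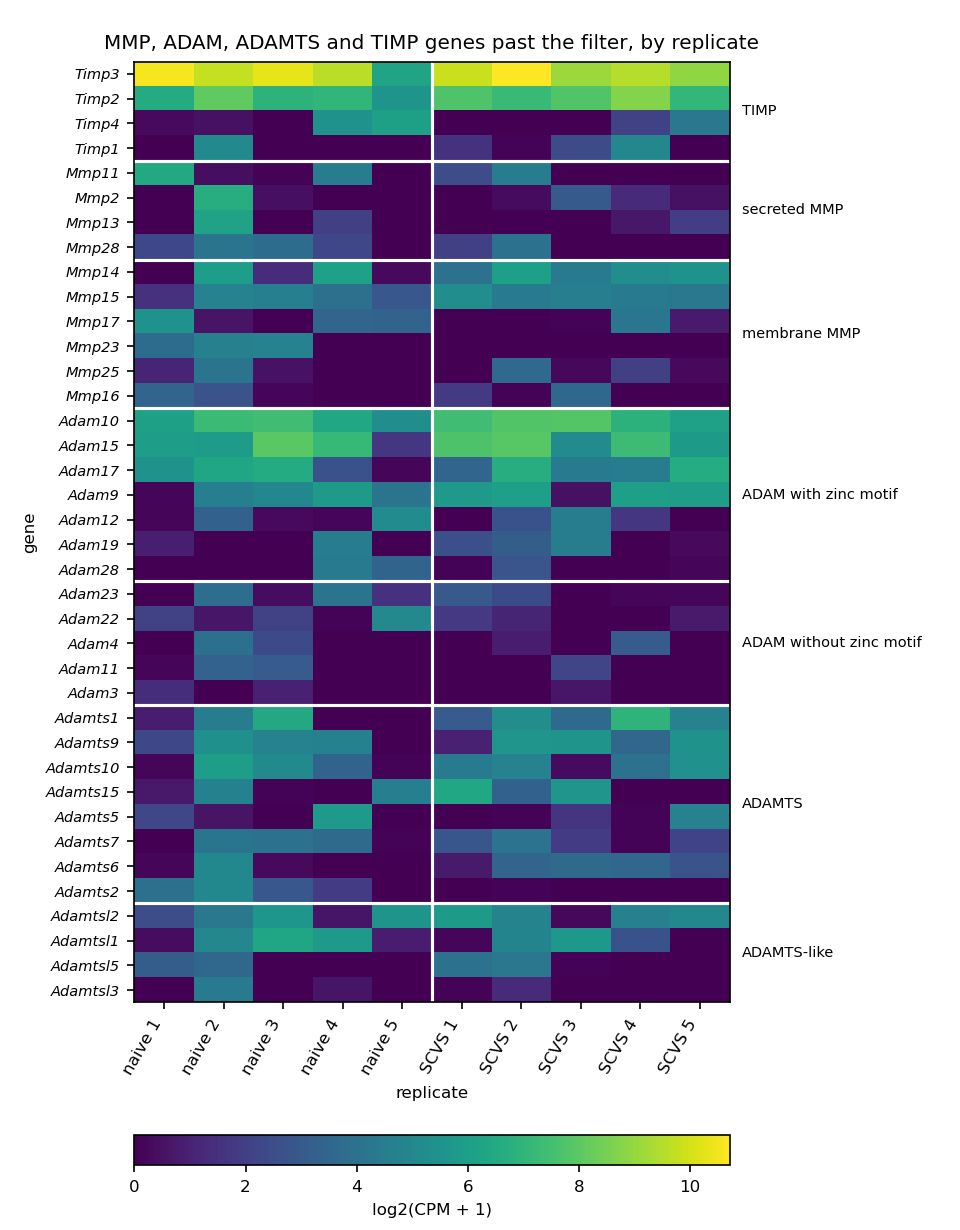
Level of each of the 38 genes past the filter in each replicate, as log2(CPM + 1) (colour), with genes in rows by subfamily and replicates in columns, naive at the left. Timp3 and Timp2 are bright throughout, while most other genes are dark in several replicates and bright in others of the same group.

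Subfamilies differed in how many genes were detected. The 4 TIMP genes, 6 of 7 membrane-bound MMPs, 4 of 5 ADAMTS-like genes, 8 of 19 ADAMTS genes, 7 of 21 ADAMs with the zinc motif, 5 of 13 ADAMs without it and 4 of 16 secreted MMPs passed the filter. Gene structure went with detection among the ADAMs. Of 16 ADAMs with a single coding exon, 8 had no count and only Adam4 passed, and together they had 812 counts over the 10 replicates. The 18 ADAMs with several coding exons had 47221 counts and 11 passed. All 9 with several coding exons and the zinc motif were over the floor somewhere, with 45739 counts, against 1482 counts for the 9 with several exons and no motif. No test was made of these differences in structure.

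Several genes of these families lie in clusters. On chromosome 9, 10 MMP genes lie between 7272514 and 7699585 (mm9), among them the collagenases, stromelysins and matrilysin. Of these 10 genes 6 had no count, and Mmp13, the gene at the edge of the cluster, was alone in exceeding the floor. Of the 4 genes Adam24, Adam25, Adam20 and Adam39 (chr8:41760448-41912215) and the 4 genes Adam26b, Adam26a, Adam34l and Adam34 (chr8:44605218-44784841), none exceeded the floor. A further cluster of 5 ADAMs (chr8:25712718-26127394) held 3 genes that exceeded the floor (Adam9, Adam3 and Adam32), of which Adam9 and Adam3 passed the filter, next to Adam18 and Adam5. Counts of paralogs such as Adam1a and Adam1b, Adam26a and Adam26b, and Adam34 and Adam34l may be uncertain, since reads could be split between them or dropped, and how alike their transcripts are was not measured.

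Inhibitors made up the largest share of the reads on these genes. Summed over the 4 TIMPs, the level was 1060 ± 546 CPM in the naive and 1113 ± 463 CPM in the SCVS group (SD, n = 5), that is 43.5% to 80.9% of the summed CPM of all 85 genes in a replicate. The MMPs together reached 139 ± 119 and 85.9 ± 33.7 CPM, the ADAMs 323 ± 166 and 429 ± 142 CPM, and the ADAMTSs 115 ± 90.4 and 145 ± 21.1 CPM. The ratio of summed TIMP to summed MMP CPM ran from 3.61 in naive replicate 2 to 21.4 in naive replicate 3, and from 9.50 to 18.0 over the SCVS pools, so the SCVS values lay within the naive range. Naive replicate 5 had the lowest sum over all 85 genes, 432 CPM, against 1188 to 2849 CPM in the other replicates.

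**Figure D2:**
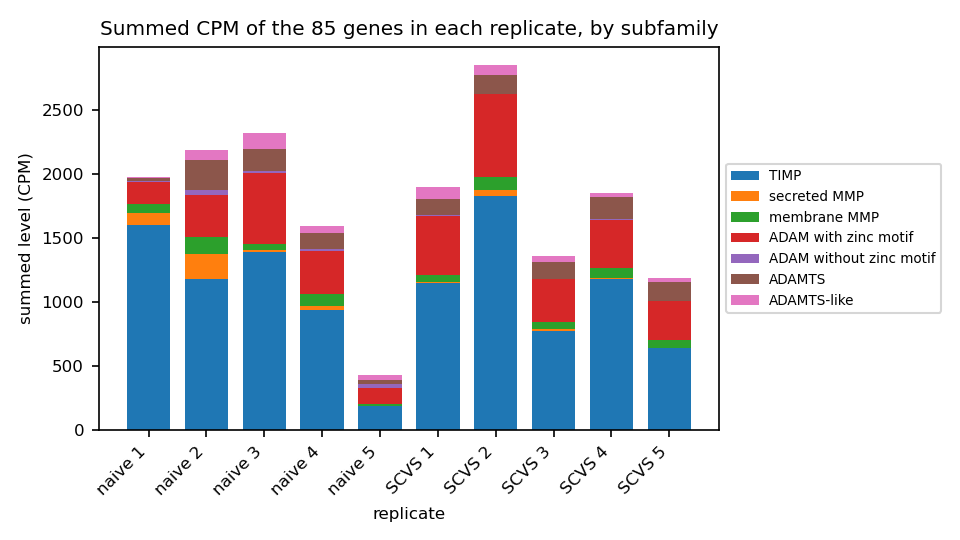
Summed level in CPM (vertical axis, from 0) of the 85 genes in each replicate (horizontal axis), stacked by subfamily. TIMPs fill 43.5% to 80.9% of each bar, and the bar of naive replicate 5, at 432 CPM, is the shortest.

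Timp3 (ENSMUSG00000020044, chr10:85763117-85812251), a matrix-bound inhibitor of MMPs, ADAM17 and ADAMTSs, was the most abundant of the 85 genes on the scale of CPM per kilobase of exon, 109 ± 59.7 (SD, n = 10). Exon lengths here and in what follows are those of an mm9 annotation, which may not be the one behind the counts. Its counts were 15680, 11191, 17727, 10404 and 1005 over naive pools 1 to 5 and 13025, 20394, 6728, 9604 and 4834 over SCVS pools 1 to 5, each pool being a replicate. The groups overlapped and naive replicate 5 was the lowest of all. The log2 fold change of SCVS against naive was −0.14 (SE 0.60), with an approximate 95% interval of −1.31 to 1.03. Its exons overlap Syn3 on the opposite strand, so some of its reads cannot be assigned with certainty.

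Timp2 (ENSMUSG00000017466, chr11:118162383-118217054) inhibits MMPs and also serves with MMP14 in activating the MMP2 precursor. It was next in level, 46.6 ± 27.6 CPM per kilobase, and the ranges of both genes over the 10 replicates overlapped. The naive pools had 1007, 3454, 1700, 1769 and 603 counts and the SCVS pools 3075, 1849, 2749, 5591 and 1355. The groups overlapped, and the log2 fold change was 0.78 (SE 0.49, 95% interval −0.17 to 1.74). The intervals of Timp2 and Timp3 were among the narrowest of the 38 genes.

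Timp4 and Timp1 were counted in some replicates and absent from others. Timp4 (ENSMUSG00000030317), an inhibitor known from heart and brain vessels, had 2, 5, 0, 576 and 896 counts over the naive pools and 0, 0, 0, 42 and 186 over the SCVS pools. It was therefore high in naive replicates 4 and 5 and, at a lower level, in SCVS replicates 4 and 5, and the log2 fold change of −2.32 (SE 2.48) became −1.23 without naive replicate 5 and −4.77 without SCVS replicate 5. The summed level of neural genes, led by Mbp, was highest in the same replicates, at 891 and 3159 CPM in naive replicates 4 and 5 and 1532 and 1869 CPM in SCVS replicates 4 and 5 against 73.4 to 523 CPM elsewhere, and the part of those cells in the Timp4 values was not tested. Timp1 (ENSMUSG00000001131), the inhibitor induced in inflamed tissue, had 0, 427, 0, 0 and 0 counts over the naive pools and 28, 1, 57, 398 and 0 over the SCVS pools. A single replicate held most counts in each group, and the log2 fold change of 0.19 (SE 2.60) became 9.57 without naive replicate 2 and −1.94 without SCVS replicate 4.

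Among the ADAMs with the zinc motif, 4 genes carried most of the counts. Adam10 (ENSMUSG00000054693, chr9:70526804-70628036), the sheddase that starts Notch receptor cleavage, was at 27.0 ± 13.9 CPM per kilobase (SD, n = 10). It had 702, 2016, 2404, 1136 and 488 counts over the naive pools and 2429, 2727, 2848, 1544 and 680 over the SCVS pools. The groups overlapped, with naive replicate 5 and SCVS replicate 5 the lowest of each, and the log2 fold change was 0.60 (SE 0.49, 95% interval −0.35 to 1.55). Without naive replicates 1 and 5, the replicates low in LEC or endothelial markers, it was 0.20.

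Adam15 (ENSMUSG00000028041, chr3:89142464-89153932), a disintegrin-bearing protease found at endothelial junctions, had 636, 770, 3495, 1964 and 30 counts over the naive pools and 2954, 2913, 432, 2114 and 558 over the SCVS pools. Its level, 19.8 ± 14.7 CPM per kilobase, did not differ from that of Adam10 beyond the spread, and its log2 fold change was 0.35 (SE 0.87). Without naive replicates 1 and 5 the sign turned, to −0.19. Adam17 (ENSMUSG00000052593), the enzyme that releases tumour necrosis factor and EGF receptor ligands, had 454, 999, 1321, 75 and 2 counts over the naive pools and 146, 1218, 247, 285 and 981 over the SCVS pools. Its values ran from below the floor to over 1000 counts within the naive group, and its log2 fold change of 0.09 (SE 1.17) was −0.31 without naive replicates 1 and 5. Adam15 and Adam17 overlap 4731419I09Rik and Iah1 on the opposite strand. Adam9 (ENSMUSG00000031555), which cuts several growth factor precursors, had 1, 301, 436, 753 and 217 counts over the naive pools and 757, 788, 5, 866 and 628 over the SCVS pools. In each group 1 replicate was near or under the floor while the others had more than 200 counts, and the log2 fold change was 0.93 (SE 1.23).

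The 5 ADAMs without the motif that passed the filter were all at low levels. Adam23 (ENSMUSG00000025964), with Adam22 a receptor for the secreted protein LGI1 in neurons, had the highest mean CPM of them over all replicates, 4.39. That of Adam22 was close, 4.36, and in the naive group Adam22 was higher (7.86 against 6.47 CPM). The counts of Adam23 were 0, 176, 4, 223 and 25 in the naive pools and 97, 53, 0, 2 and 1 over the SCVS pools (log2 fold change −1.56, SE 2.05). Adam22 had 427 of its counts in naive replicate 5, the replicate with the highest neural sum, and at most 46 in any other replicate. The part of that replicate's cells in the Adam22 value was not tested. All 5 genes had negative fold changes, from −3.29 to −1.15, and none had an unadjusted p under 0.05 (edgeR quasi-likelihood test).

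Membrane-bound MMPs were detected more widely than secreted ones. Mmp14 (ENSMUSG00000000957, chr14:55050441-55060095), the membrane-type collagenase that activates MMP2, was at 12.2 ± 10.8 CPM per kilobase (SD, n = 10), the highest level of any MMP. It had 0, 810, 22, 936 and 3 counts over the naive pools and 217, 801, 256, 496 and 442 over the SCVS pools. All SCVS replicates had more than 200 counts, whereas the naive replicates lay at both ends of the range, and the log2 fold change was 0.43 (95% interval −2.51 to 3.37), or −0.29 without naive replicates 1 and 5. It was 3.66 with replicate number as a block and 2.58 in limma voom with quality weights. The coefficient of variation of its CPM was 134% in the naive and 54.6% in the SCVS group. Mmp15, a second membrane-type enzyme, was over the floor in all replicates, with 20, 333, 329, 198 and 86 counts in the naive and 528, 256, 287, 267 and 185 in the SCVS group. The log2 fold change of Mmp15 was 0.70 (SE 0.91; 0.15 to 1.01 over the alternatives), and the groups overlapped.

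Of the 4 secreted MMPs that passed the filter, Mmp2, Mmp13 and Mmp11 were carried by few replicates. Mmp2 (ENSMUSG00000031740), gelatinase A, had 1307 counts in naive replicate 2 and at most 5 in the other naive replicates, and 0, 3, 90, 20 and 4 counts over the SCVS pools. Mmp13 (ENSMUSG00000050578), collagenase 3, likewise had 915 counts in naive replicate 2 and at most 42 in the other replicates. Mmp11 (ENSMUSG00000000901), the furin-activated stromelysin 3, had 929 counts in naive replicate 1, 305 in naive replicate 4 and 275 in SCVS replicate 2. Its exons overlap Gm867 on the same strand. The log2 fold changes of Mmp2, Mmp13 and Mmp11 were −3.37 (SE 2.67), −4.35 (SE 2.92) and −2.25 (SE 2.50). Mmp2 no longer passed the filter without naive replicate 2, SCVS replicate 3 or SCVS replicate 4. The value of Mmp13 was −0.093 without naive replicate 2, and that of Mmp11 was −0.17 without naive replicate 1 and −4.29 without SCVS replicate 2. Mmp28 (ENSMUSG00000020682), epilysin, had 41, 211, 179, 53 and 0 counts over the naive pools and 44, 187, 0, 0 and 0 over the SCVS pools. It was over the floor in 6 of 10 replicates, and its log2 fold change was −1.18 (SE 2.23), or −3.70 to −0.68 over the alternatives. Mmp9 (ENSMUSG00000017737), gelatinase B of neutrophils and activated macrophages, did not pass the filter, having 120 counts in SCVS replicate 3, 12 in replicate 4 of that group and 4 in naive replicate 5. The remaining replicates had 0 counts, which at these depths allows up to 0.3005 CPM. Mmp13, Mmp15, Mmp28, Adam4 and Adam22 were outside the rule for named genes and were chosen after their values were seen.

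Naive replicate 2 stood out, and not among the secreted enzymes alone. It held the highest CPM of 12 of the 58 genes over the floor somewhere, against 3 to 7 genes in every other replicate. Among the 12 were Mmp2 and Mmp13, and also Mmp25, Timp1, Adam4, Adam11 and Adamtsl3. This replicate also had the highest sum of 7 fibroblast genes in the naive group, 1701 CPM, led by the collagen chain Col1a1 and by Lum (lumican). Its LEC marker sum, 2747 CPM, was the highest in that group as well. The part of these cells in the values of Mmp2, Mmp13 and Timp1 was not tested.

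Of the ADAMTSs, Adamts1 (ENSMUSG00000022893), which cleaves versican and aggrecan, had the highest mean CPM. Its counts were 8, 281, 1232, 0 and 0 over the naive pools and 104, 445, 146, 1631 and 257 over the SCVS pools. All SCVS replicates had more than 100 counts and 3 naive replicates had 8 or fewer, yet the log2 fold change was only 0.85 (SE 1.76), and −0.21 without SCVS replicate 4. Adamts9 (ENSMUSG00000030022), a versicanase needed in vessel development, had 42, 524, 360, 346 and 0 counts over the naive pools and 14, 569, 561, 139 and 438 over the SCVS pools, with a log2 fold change of 0.59 (SE 1.41). Without naive replicates 1 and 5 it was −0.078 in edgeR and −0.036 in DESeq2. Adamts10 (ENSMUSG00000024299), a protein of fibrillin microfibrils, had 1, 778, 477, 130 and 1 counts over the naive pools and 289, 316, 3, 201 and 420 over the SCVS pools, with a log2 fold change of −0.05 (SE 1.57). Summed over the 19 ADAMTSs, the naive replicates ran from 24.3 to 231 CPM and the SCVS replicates from 121 to 174 CPM, so the naive range enclosed the SCVS range. Adamts3 (ENSMUSG00000043635), which with CCBE1 processes the lymphatic growth factor VEGF-C, had at most 34 counts in a replicate and did not pass the filter.

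Of the ADAMTS-like genes, which code for secreted glycoproteins without protease activity, Adamtsl1 (ENSMUSG00000066113) had 3, 389, 1083, 739 and 11 counts in the naive and 2, 339, 635, 73 and 0 over the SCVS pools. Adamtsl2 (ENSMUSG00000036040), which binds fibrillin 1, had 49, 235, 679, 7 and 603 in the naive pools and 786, 323, 2, 327 and 311 over the SCVS pools. Within the SCVS group, Adamtsl1 ran from 0 to 635 counts and Adamtsl2 from 2 to 786, and their log2 fold changes were −0.97 (SE 1.76) and 0.17 (SE 1.28). That of Adamtsl1 was −0.34 without naive replicate 3 and −2.11 without SCVS replicate 3, and that of Adamtsl2 was −0.25 without SCVS replicate 1 and 0.62 without naive replicate 3.

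In the main test Adamts2 and Mmp23 had the lowest unadjusted p values of these families, although neither passed the adjusted threshold. They were counted in several naive replicates and were at 0 or 1 count in every SCVS replicate. No other gene of these families reached an unadjusted p under 0.05 in that test, whereas in edgeR the number that did ran from 1 to 4 with a replicate left out (4 without naive replicate 2) and was 6 with no filter and 1 with the replicate block. Adamts2 and Mmp23 could not enter the filter in 5 replicates. All genes past the filter were tested with edgeR's quasi-likelihood test and Benjamini-Hochberg adjustment at an adjusted p under 0.1. It called 0 of 14815 genes (0%), and 0 of the 38 tested genes of these families, and also 0 of 13794 genes without naive replicates 1 and 5. At an unadjusted p under 0.05 it found 460 genes (3.10%), 174 of them lower in SCVS (1.17% of those tested). Among the 38 genes 2 reached it (5.26%), Adamts2 and Mmp23, both lower. Both passed the filter through naive replicates alone, so their direction was fixed by the filter. The share, their rank and their p values are therefore a description and no evidence for an effect of stress. DESeq2 called 114 of the 13998 genes for which it gave an adjusted p (0.814%), of which 40 were lower (0.286%), and it called the same pair among the 33 of the 38 genes that had one. Groups did not overlap in CPM for 93 of the 14815 genes (0.628%) and for 0 of the 38.

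Adamts2 (ENSMUSG00000036545, chr11:50415586-50621075), the protease that removes the amino-terminal propeptide from fibrillar procollagens, had 152, 401, 91, 37 and 0 counts over the naive pools and 0, 1, 0, 0 and 0 over the SCVS pools. It was over the floor in 4 of 5 naive replicates and in no SCVS replicate, and naive replicate 5, at 0, made the groups overlap. Pooled over replicates, 681 counts in the naive group against 1 in the SCVS group gave a ratio of 657 in CPM, with an exact 95% interval of 117.5 to 25990 that covers counting error only. That 1 count lay under the floor, and 3 counts per SCVS replicate, as taken for Mmp23 below, would give a ratio of 44.9. In edgeR the log2 fold change was −8.81 (SE 2.41, unadjusted p = 0.0035, adjusted p = 0.964), and the adjusted p over the alternatives ran from 0.000143, in DESeq2 without naive replicate 5, to 1. In DESeq2 the adjusted p was 0.0072. It was called by DESeq2 with any replicate left out except naive replicate 2, without which the adjusted p was 0.195, and with naive replicates 1 and 5 left out together it was 0.0086. Since Adamts2 passed the filter through naive replicates alone, these calls and their stability are a description.

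Mmp23 (ENSMUSG00000029061, chr4:155024764-155027493), an MMP anchored by its amino terminus and released by furin-type cleavage, had 133, 311, 364, 0 and 0 counts over the naive pools and 0 in every SCVS replicate. It was thus detected in 3 of 5 naive replicates, and naive replicates 4 and 5 could not be told from the SCVS replicates. The mean level of 12.6 ± 12.6 CPM in the naive group was at least 51.4-fold higher than the level that 3 counts per SCVS replicate would give. The unadjusted p was 0.0122 and the adjusted p 0.964 in edgeR (log2 fold change −10.34, SE 3.15), and the adjusted p was 0.0941 in DESeq2. Over the alternatives the adjusted p ran from 0.0160, in DESeq2 without naive replicate 5, to 1. Without naive replicate 1, 2 or 3 Mmp23 no longer passed the filter, and of the 7 other DESeq2 fits with a replicate left out 2 called it, those without naive replicate 4 or 5, with adjusted p from 0.0160 to 0.133 over the 7. Mmp23 likewise passed the filter through naive replicates alone, so these calls are a description.

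Markers of fibroblasts and mural cells followed both genes in part of the replicates only. In edgeR 0 genes of these lists were called, as were 0 of all 14815 tested genes. Summed over 7 fibroblast genes, of which Dcn (decorin) was the most abundant, the level in the naive replicates was 946, 1701, 750, 459 and 60.2 CPM and in the SCVS replicates 27.2, 86.3, 181, 185 and 1591 CPM. In the fits 6 of the 7 genes were lower in SCVS. Col1a2, a type I collagen chain and thus from a substrate of ADAMTS2, had 629, 4234, 1636, 1772 and 202 counts in the naive and 209, 175, 9, 364 and 437 over the SCVS pools (log2 fold change −2.70, SE 0.96, unadjusted p = 0.0163, adjusted p = 0.975 in edgeR). Col3a1 had 1532, 3941, 576, 1 and 62 counts in the naive and 0, 1, 41, 193 and 101 over the SCVS pools (unadjusted p = 0.0485 and adjusted p = 1.00 in edgeR). In DESeq2 the adjusted p of Col1a2 was 0.253 and that of Col3a1 0.435. SCVS replicate 5 had the highest Dcn count of all, 11569, but 0 counts of Adamts2 and Mmp23. Pdgfra, a defining fibroblast gene, was at 0 or under the floor in 6 of the 10 replicates. Summed over 6 mural genes, of which Rgs5 was the most abundant, the level was 7532, 1042, 769, 3607 and 5078 CPM in the naive replicates and 1105, 5846, 3231, 3011 and 406 CPM in the SCVS replicates, and 5 of the 6 had negative fold changes. Acta2, smooth muscle actin of mural cells, was among these (log2 fold change −4.04, SE 1.41, unadjusted p = 0.0146 and adjusted p = 0.964 in edgeR, adjusted p = 0.06 in DESeq2). Naive replicates 2 and 3, with the most counts of Mmp23, had low mural sums, and SCVS replicate 2, with 1 count of Adamts2 and 0 of Mmp23, had a high one. The single mural genes differed in this. Rgs5 had 5448 counts in naive replicate 2 and 70747 in SCVS replicate 2, and Cspg4 had 36 and 96. In the same 2 replicates Acta2 had 6459 and 172 counts, Tagln 687 and 0, Myh11 608 and 148, and Pdgfrb 68 and 1. The sort for CD31+podoplanin+ cells would remove CD31- fibroblasts and mural cells, and their part in the counts of Adamts2 and Mmp23 was not tested.

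**Figure D3:**
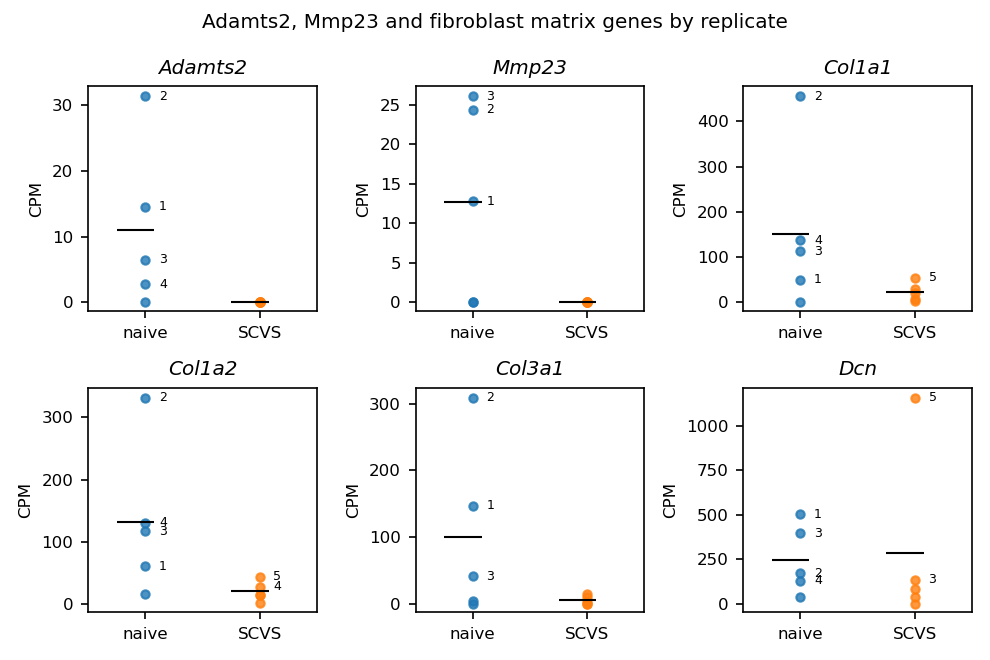
CPM of Adamts2, Mmp23 and the fibroblast matrix genes Col1a1, Col1a2, Col3a1 and Dcn (vertical axes) in the naive and SCVS groups, with a point for each replicate, its number beside it where it is not near 0, and a line at the group mean. Adamts2 and Mmp23 lie at or next to 0 in all 5 SCVS replicates, the collagens are lower there than in most naive replicates, and Dcn is highest in SCVS replicate 5.

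Over the 38 tested genes 23 fold changes were negative and 15 positive, with a median log2 fold change of −0.46 beside −0.03 over all tested genes. The standard errors were wide, with a median of 2.18 against 1.42 over all tested genes. Secreted MMPs (4 of 4) and ADAMs without the zinc motif (5 of 5) had negative fold changes, with medians of −2.81 and −2.12, while 5 of 7 ADAMs with the motif had positive ones, with a median of 0.35. Mmp2 turned positive in limma voom with quality weights (0.11) and with a replicate block (3.57), and Adam4 reached 0.57 without naive replicate 2, while the other 7 of these 9 genes were negative in every alternative run. None of these genes passed the threshold in edgeR. The median also turned positive without naive replicate 2 (0.14 over 34 genes), in limma voom with quality weights (0.02), with no filter (0.16), with the filter in 5 replicates (0.14) and with the replicate block (0.22).

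**Figure D4:**
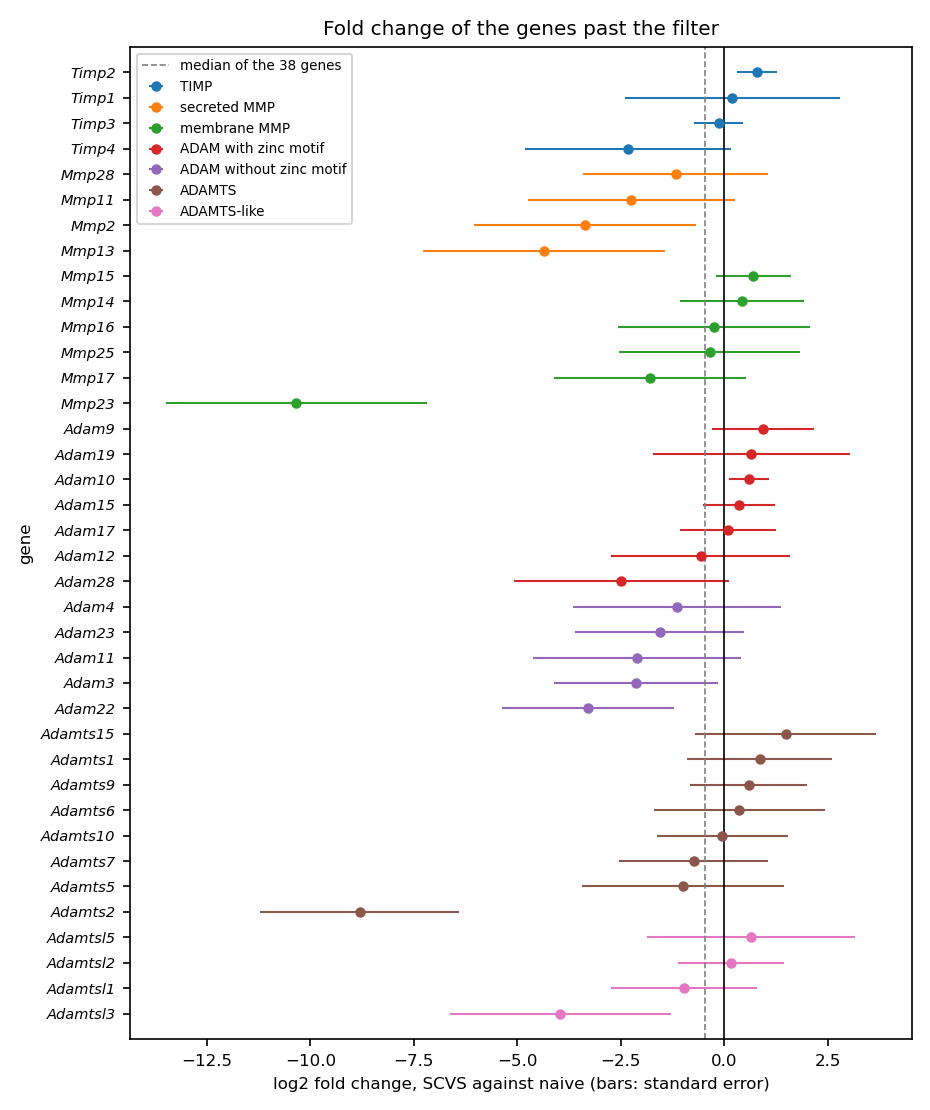
Log2 fold change of SCVS against naive (horizontal axis) for the 38 genes past the filter (vertical axis, by subfamily), with bars of 1 standard error and a dashed line at their median of −0.46. Adamts2 at −8.81 and Mmp23 at −10.34 stand apart at the left, and the bars of most other genes cross 0.

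The spread between replicates was itself uneven. Of the 38 genes 25 (65.8%) had 0 counts in a naive replicate and at least 100 in another naive replicate, against 34.8% of all tested genes. In the SCVS group 13 (34.2%) did so, against 32.5% of all tested genes. The cause of this spread was not tested.

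Partners and substrates were taken from a list of 34 genes. Of these, 29 passed the filter, 10 with positive and 19 with negative fold changes, with a median of −0.29, and 0 were called by edgeR or DESeq2 or had an unadjusted p under 0.05 in edgeR. Over all tested genes edgeR called 0% and DESeq2 0.814%, and 3.10% had an unadjusted p under 0.05 in edgeR. A count of 0 in a list this short is therefore no finding about the partners. The 5 with the highest mean CPM were Bsg (basigin, an inducer of MMPs), Sparc (a collagen-binding matricellular protein), Plat (tissue plasminogen activator), Thbs1 (thrombospondin 1) and Serpine2 (an inhibitor of thrombin and plasminogen activators). Bsg had 20161, 47508, 66780, 34285 and 9214 counts in the naive and 14389, 9563, 12759, 28798 and 26377 over the SCVS pools, with a log2 fold change of −0.85 (SE 0.51). Plat had 2046 to 3608 counts in the naive and 1193 to 4390 over the SCVS pools, with a log2 fold change of 0.01 (SE 0.42). The values of Sparc (−0.15, SE 0.43), Thbs1 (0.47, SE 0.69) and Serpine2 (−1.48, SE 0.89) did not pass the test either. All 5 genes were over the floor in all 10 replicates.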

How the data were processed

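The authors amplified RNA of sorted meningeal LECs with a whole-transcriptome kit, sequenced paired reads of 150 bases and deposited raw counts per gene for each replicate. The paper's methods name the mm9 genome, while the submitters' processing notes name GRCm38, cutadapt 1.9.1, HISAT2 2.0.1 and HTSeq 0.6.1. The annotation and the use of strand are not given in the sources used here. Coordinates, exon lengths and coding sequences were taken from mm9 (GENCODE M1), which held all 85 genes but only 58.8% of the 55401 gene identifiers in the table, so the exon lengths behind CPM per kilobase may differ from those counted. They are 1-based, and the zinc motif was searched as His-Glu, any 2 residues, His, any 5 residues, His in the longest translated coding sequence.

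CPM used the total count per replicate. Genes that exceeded 5 counts in 3 or more of the 10 replicates were tested with edgeR 4.0.16 (quasi-likelihood, TMM normalization, R 4.3.3) and Benjamini-Hochberg adjustment over all 14815 genes, at a threshold of 0.1, the filter and threshold of the study. The SE is the fold change divided by the square root of F, and approximate 95% intervals are ± 1.96 SE. Alternatives were DESeq2 1.42.0, limma voom with quality weights (limma 3.58.1), the likelihood ratio test, other scalings and filters, a replicate block and each replicate left out. Fits without naive replicates 1 and 5, and DESeq2 with each replicate left out, were added after seeing the data. The labels give no batch. In simulated counts for the SCVS and naive comparison of 14815 genes, drawn with the measured spread, edgeR recovered 62 of 200 genes changed by a log2 fold change of 4 and called 2 unchanged genes.

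The genes, lists and tests were chosen with earlier results of these data known. The 21 named genes were Timp1 to Timp4, Adam10, Adam17, Adamts3, Mmp2, Mmp9, Mmp14 and Mmp23 for their roles, the 12 with the highest mean CPM, the most abundant of each subfamily, and those with an unadjusted p under 0.05 or groups that do not overlap. Of the list of partners, the 5 with the highest mean CPM were named. Further marker lists, of bone, erythroid, neutrophil and leukocyte genes, are given in the closing part.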

Additional observations from a re-analysis of the deposited data

Results flagged for a closer look

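In 13 of 40 group values examined, a single replicate of the 5 lay far from the others, its gap to the nearest being more than 0.71 of the group's whole range. Chance alone flags about 1 in 20 groups of normally distributed values, a rate that does not hold where most pools are at 0, since 1 pool above 0 then passes by construction, as for Timp1 and Mmp9 in the naive group. Of these 13, 5 were in the naive and 8 in the SCVS group. In the naive group these were Adamts1 at 88.2 CPM in replicate 3, Mmp11 at 89.1 CPM in replicate 1, Mmp2 at 102 CPM and Timp1 at 33.4 CPM in replicate 2, and Mmp9 at 0.3 CPM in replicate 5. In the SCVS group Adamts3 at 2.76 CPM, Mmp2 at 7.3 CPM and Mmp9 at 9.74 CPM were all high in replicate 3, in which Adam9, at 0.406 CPM, was low against 53.7 to 65.4 CPM in the others. Adamts1 at 123 CPM and Timp1 at 30.1 CPM were high in SCVS replicate 4, Timp4 at 18.6 CPM in SCVS replicate 5 and Mmp11 at 22.6 CPM in SCVS replicate 2. SCVS replicate 4 had the highest summed level of leukocyte genes, 7202 CPM, although the sort for CD45- cells would remove leukocytes, and the part of those cells in its Adamts1 and Timp1 values was not tested.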

How the results depend on the processing

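The number of genes called depended on the tool. It was 0 of 14815 in edgeR's quasi-likelihood test, 114 in DESeq2, 123 without its Cook's filter, 3 in limma voom with quality weights (voom below), 38 in the likelihood ratio test, and 235 in DESeq2 with naive replicates 1 and 5 left out. DESeq2 called 2 of the 38 genes of these families with or without Cook's filter (Adamts2 and Mmp23) and 1 (Adamts2) without naive replicates 1 and 5. With edgeR, 0 genes were called with any replicate left out. The median log2 fold change of the families' genes turned positive with voom (0.02), no filter (0.16), a filter in 5 replicates (0.14), the replicate block (0.22) and without naive replicate 2 (0.14), and lay between −0.57 and 0.14 with a replicate left out.

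The correlation between same-numbered replicates was taken on log2 CPM after the mean of each group was subtracted, not on the levels themselves. It ran from −0.0089 to 0.133 and was not over 0.1 for every pair, so the numbers were not taken to pair the samples. Replicates 2, 4 and 5 (3 of 5 numbers) nevertheless each correlated best with their own number, a hint from the data and not the design. With the replicate block 0 genes were called, and Adamts10 (1.35), Mmp2 (3.57) and Timp3 (0.22) changed sign. Other genes kept their sign but moved, among them Timp1 (0.19 to 6.61), Adamts1 (0.85 to 3.65), Mmp14 (0.43 to 3.66) and Adam15 (0.35 to 1.18). Adam23 (−1.56 to −3.17) and Adamtsl1 (−0.97 to −1.85) became more negative. Adamts10 also changed sign in DESeq2 with and without Cook's filter (0.0010), with DESeq2's size factors in edgeR (0.0011) and with voom (0.93), as did Mmp2 (0.11) and Timp3 (0.13) with voom. Without naive replicates 1 and 5, in edgeR and DESeq2, the sign turned for Adam15 (−0.19 and −0.16), Adam17 (−0.31 and −0.25), Adamts9 (−0.078 and −0.036) and Mmp14 (−0.29 and −0.26), and for Timp1 in edgeR (−0.55). With a replicate left out, fold changes spanned 0 for Adam17 (−0.36 to 0.58), Adamts1 (−0.21 to 2.86), Adamts10 (−0.52 to 0.86), Adamtsl2 (−0.25 to 0.62), Timp1 (−1.94 to 9.57) and Timp3 (−0.45 to 0.16). They kept their sign but moved by over 1.5 times for Adam10 (0.39 without naive replicate 5), Adam15 (0.038 without naive replicate 5 to 1.00 without naive replicate 3), Adam23 (−2.60 without SCVS replicate 1 to −0.86 without naive replicate 4), Adam9 (0.61 without naive replicate 1 to 1.41 without naive replicate 4), Adamts9 (0.27 without naive replicate 5 to 1.05 without naive replicate 2), Mmp14 (0.12 without naive replicate 1 to 1.14 without naive replicate 4) and Timp2 (0.42 without SCVS replicate 4 to 1.19 without naive replicate 2). Of 19 named genes tested, 9 kept their sign in every alternative run, among them Adamts2 and Mmp23, whose direction the filter had fixed. The causes were not tested. With a detection limit of more than 0 counts in place of 3, 34.6 of the 85 genes were detected per naive and 35.6 per SCVS replicate, and 22.4 and 24.6 with more than 10.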

Other observations

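Summed levels of the marker lists varied between pools. Leukocyte genes, led by Cd74, summed to 255 ± 301 CPM in the naive and 1842 ± 3019 CPM in the SCVS group (SD, n = 5), with 7 of 7 fold changes positive, although the sort was for CD45- cells. SCVS replicate 4 had 7202 CPM and the other SCVS replicates 246 to 1131 CPM, against 29.5 to 753 CPM over the naive pools. Ptprc, which codes for CD45, had 1, 0, 1, 1 and 0 counts over the naive pools and 27, 0, 0, 113 and 404 over the SCVS pools (edgeR log2 fold change 7.46, SE 2.64, adjusted p = 0.971, and DESeq2 adjusted p = 0.0801). It passed the filter through SCVS replicates alone, so its direction was fixed by the filter. These values are a description and no evidence for an effect of stress. Erythroid genes, led by Hba-a1, reached 3001 CPM in SCVS replicate 5 and at most 125 CPM elsewhere. Neutrophil genes summed to 12.8 ± 13.5 and 60.4 ± 125 CPM and bone genes to 34.2 ± 30.6 and 47.4 ± 32.6 CPM. Mural genes, led by Rgs5, summed to 3606 ± 2837 and 2720 ± 2126 CPM. Neural genes, led by Mbp, summed to 991 ± 1246 and 773 ± 859 CPM.

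Of the 58 genes over the floor somewhere, 5 exceeded it in naive replicates alone (Adam1b, Adamts19, Adamts2, Adamts20 and Mmp23) and 8 in SCVS replicates alone (Adam21, Adam33, Adam8, Adamts17, Adamts18, Adamts8, Adamtsl4 and Mmp19). Apart from Adamts2 and Mmp23 none of these passed the filter, and the difference was not tested. All but Adamts2, Mmp23 and Adam33 exceeded the floor in only 1 or 2 replicates. How many of all genes exceeded it in 1 group alone was not counted, so these lists are a description and no evidence of expression in 1 group only. Outside the rule for named genes and chosen after its values were seen, Vegfc, the substrate of the ADAMTS3 and CCBE1 complex, had 1, 472, 138, 266 and 0 counts in the naive and 666, 1556, 334, 102 and 220 in the SCVS replicates (log2 fold change 1.72, SE 1.49). Ccbe1 had 575 of its counts in naive replicate 3 and at most 13 in any other replicate.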
